A study of Mus musculus with 6 samples.

Results

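Uchl1, Uchl3 and Uchl5 encode ubiquitin C-terminal hydrolases, and their RNA was measured here in mouse embryonic fibroblasts with and without a hydrogen peroxide treatment. Every non-control probe that the array names Uchl1, Uchl3 or Uchl5 was taken on all 6 arrays, which gave 3 genes of 28919 gene names and 4 probes of 41174. Uchl1 had 2 probes (A_51_P475049, the brighter, and A_52_P24308, the dimmer), Uchl3 had A_52_P537050 and Uchl5 had A_51_P122238, each printed as 1 spot per array. The set was chosen by measured values of Uchl1 in these same data, its log2 ratio being high after peroxide in wild type cells and low in untreated mutant cells. The Uchl1 values are therefore given as a description with no test, and the limma tests below are of Uchl3 and Uchl5.

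Ubiquitin C-terminal hydrolases are cysteine proteases that cut ubiquitin from small C-terminal adducts and so return free ubiquitin to the cell. Uchl1 is known as an abundant protein of neurons and neuroendocrine cells. Uchl3 is more widely expressed and also cleaves the ubiquitin-like protein Nedd8. Uchl5 works as part of larger assemblies, the proteasome cap and the INO80 chromatin remodelling complex, and is held there by partner proteins. The family also holds Bap1, a nuclear deubiquitinase, and Uchl4, a close mouse copy of Uchl3.

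The cells, from mice of a mixed genetic background, were primary fibroblasts grown from whole minced embryos of day E15, so a culture could hold other cell types besides fibroblasts. Wild type cells were compared with cells of Wrn mutant mice (WS in the sample labels), which lack part of the helicase domain of Wrn, the gene mutated in Werner syndrome, in every tissue. Treated cells of both genotypes received 0.5 mM H2O2 for 1 h, then fresh medium, and RNA was taken 24 h later. On 2 arrays treated wild type cells (Cy5) were hybridised against untreated wild type cells (Cy3), on 2 arrays treated mutant cells (Cy5) against untreated mutant cells (Cy3), and on 2 arrays, replicates 3 and 4, untreated wild type against untreated mutant cells. The labels call the arrays biological replicates without naming embryos or cultures, so the p-values below measure the spread between these arrays. No dyes were swapped on any array, so an effect of the dye cannot be told apart from one of the treatment on the treatment arrays, or from one of the genotype on the genotype arrays.

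Cy3 signal was well above background for 75.7% to 89.9% of spots per array and Cy5 signal for 41.3% to 69.1%. Spots marked as outliers made up 22.6% of wild type replicate 2, more than on the other 5 arrays (0.400% to 8.81%), and were left out. The 2 arrays of a comparison correlated across probes at r = 0.783 in wild type cells, 0.624 in mutant cells and 0.542 between genotypes. Of 17 fibroblast markers, all 17 were well above background in Cy3 on every array and 15 to 17 in Cy5. The 4 probes of Wrn had log2 ratios between genotypes of 0.36, -0.91, -0.01 and 0.38, and since their place relative to the deleted part is not known here, they check no label. The sources do not settle the direction of the genotype arrays. The labels put wild type cells in Cy5, while the study's own list reads Cy5 over Cy3 as mutant over wild type. The direction of that list is used here as the likely one: within Cy3 alone, untreated mutant minus untreated wild type cells on the treatment arrays correlated with it across 17067 probes at r = 0.736. Under the labels every sign between untreated genotypes turns.

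The promoter windows of the members are shown because the Uchl1 ratios stood apart from those of Uchl3 and Uchl5 while all are of 1 family. Each is the 250 bases before the RefSeq start on build GRCm38.p6, with matches to any of 4 searched motifs in capitals.
Uchl1, chr5:66675871-66676120, plus strand: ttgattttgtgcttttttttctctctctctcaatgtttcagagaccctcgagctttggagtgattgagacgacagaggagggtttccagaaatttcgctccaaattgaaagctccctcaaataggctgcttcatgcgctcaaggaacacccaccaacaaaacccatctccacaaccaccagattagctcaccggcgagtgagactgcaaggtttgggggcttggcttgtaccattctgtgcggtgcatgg
Uchl3, chr14:101653717-101653966, plus strand: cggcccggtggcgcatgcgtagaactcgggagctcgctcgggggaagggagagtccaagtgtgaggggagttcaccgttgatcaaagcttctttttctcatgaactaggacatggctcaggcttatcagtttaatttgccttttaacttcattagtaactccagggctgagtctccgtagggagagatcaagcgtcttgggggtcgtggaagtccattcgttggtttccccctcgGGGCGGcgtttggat
Uchl5, chr1:143777028-143777277, plus strand: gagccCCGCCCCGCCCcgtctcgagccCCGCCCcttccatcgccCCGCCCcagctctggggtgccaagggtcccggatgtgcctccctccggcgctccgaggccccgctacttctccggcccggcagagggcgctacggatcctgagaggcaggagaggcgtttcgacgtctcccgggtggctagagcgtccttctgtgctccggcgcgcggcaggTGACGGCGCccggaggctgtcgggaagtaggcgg
The motifs, searched on both strands, were the antioxidant response element core (TGACNNNGC), the GC box (GGGCGG), the CCAAT box (CCAAT) and the TATA box (TATAAA). None of these letters occurred in the Uchl1 window. The Uchl3 window held 1 GC box, and the Uchl5 window held 4 GC boxes, some of them overlapping, and 1 antioxidant response element core. Among all 32851 windows of this length, 10.2% held that core, 32.7% a GC box, 33.8% a CCAAT box and 12.4% a TATA box. The Uchl1 window was 48.8% G or C with 7 CpG dinucleotides, near the median window (52.4% and 6). The Uchl3 window was 54.0% G or C with 15 CpG, and the Uchl5 window 74.0% with 30, more G or C than 95.1% of windows. RefSeq places the antisense gene Uchl1os beside the Uchl1 start, and no probe carries its name.

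Uchl1 had 1 of the highest ratios of the whole array after peroxide in wild type cells. The dimmer Uchl1 probe had log2 ratios of treated to untreated cells of 2.16 on replicate 1 and 1.63 on replicate 2, a mean of 1.90 (SE 0.19, n = 2), or 3.72-fold. The brighter Uchl1 probe read 2.02 on replicate 1 (SE 0.30, 4.06-fold), and its spot on replicate 2 was left out as non-uniform in Cy3. With that spot kept, the brighter probe read 2.04 and 1.29, a mean of 1.66. Both probes were therefore higher in the treated channel on both arrays. The brighter probe ranked 14 from the top of 40303 probes and the dimmer 16.

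Uchl3, the wider-expressed relative, read 0.66 and 0.34 in the same comparison, both above 0. Its mean log2 ratio was 0.50 (SE 0.20, 95% interval 0.02 to 0.98), and it did not pass the test (limma adjusted p = 0.235). Uchl5, the proteasome-bound relative, read 0.73 on replicate 1 (SE 0.27, 95% interval 0.08 to 1.38, limma adjusted p = 0.207), and its spot on replicate 2 was left out. With 1 array, its SE and p borrow the spread of the other arrays in the fit. With outlier spots kept Uchl5 read 0.76 and 0.57, again both above 0. Neither of the 2 tested members was called at an adjusted p under 0.05, where 0.258% of all probes were (104 of 40303). At an unadjusted p under 0.05 both passed, Uchl5 on its 1 array, as did 20% of all probes. Of all probes 10.1% had a higher ratio than Uchl3 and 4.64% a higher one than Uchl5.

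**Figure D1:**
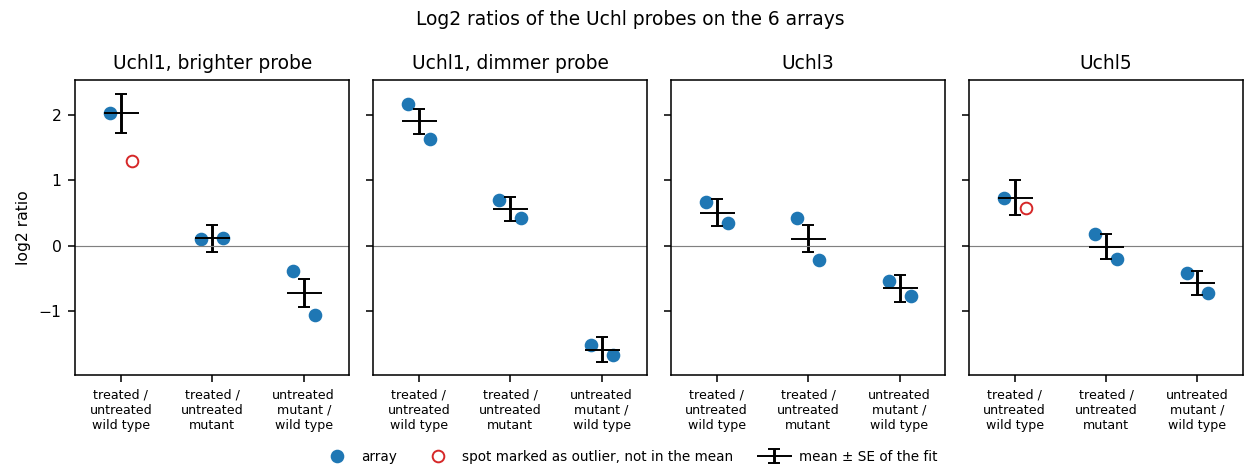
Log2 ratio (vertical axis) of each Uchl probe on each array, for treated over untreated wild type cells, treated over untreated mutant cells, and untreated mutant over wild type cells. Filled points are arrays, open points are spots marked as outliers and not in the mean, and bars are the mean and SE of the fit. Both Uchl1 probes lie near 2 in wild type cells, and the ratios of Uchl3 and Uchl5 lie between -1 and 1.

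In mutant cells the peroxide ratios of the brighter Uchl1 probe, Uchl3 and Uchl5 had means between -0.02 and 0.11, and that of the dimmer Uchl1 probe was higher. These 3 means depended on the loess step, since with the arrays only centred on their median they came to 0.53, 0.72 and 0.73. The brighter Uchl1 probe read 0.11 on both arrays (mean 0.11, SE 0.21). The dimmer Uchl1 probe read 0.69 and 0.41, but its Cy5 signal was not well above background on either array and its Cy3 signal was on 1 of 2, so no fold is given. Uchl3 read 0.42 and -0.22, on opposite sides of 0 (mean 0.10, SE 0.20, 95% interval -0.38 to 0.59, limma adjusted p = 0.888). Uchl5 read 0.18 and -0.21 (mean -0.02, SE 0.19, 95% interval -0.48 to 0.44, limma adjusted p = 0.985). By limma 0 of the 2 tested members was called, as was 0% of all 41052 probes, and 0 of the 2 passed at an unadjusted p under 0.05, where 4937 probes did (12%). The interval of Uchl3 includes its wild type ratio of 0.50, and that of Uchl5 ends below its wild type ratio of 0.73. That wild type ratio is from 1 array, and its own interval (0.08 to 1.38) overlaps the mutant one.

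The responses of the genotypes were set against each other as the mutant minus the wild type log2 ratio. That difference was -1.91 (SE 0.36) for the brighter Uchl1 probe, with 1 wild type array. Its wild type term is a value by which the set was chosen, so it is a description only. No difference is given for the dimmer probe, whose mutant signal was near background. On that wild type array the ratio of the brighter probe was above that of either mutant array. For Uchl3 the difference was -0.40 (SE 0.29, 95% interval -1.08 to 0.29, limma adjusted p = 0.928) and for Uchl5 -0.75 (SE 0.33, 95% interval -1.55 to 0.05, limma adjusted p = 0.845). Of the 2 tested members 0 was called by limma, beside 0% of 40267 probes, and 0 of the 2 passed at an unadjusted p under 0.05, where 2391 probes did (5.94%). A difference in response was thus not detectable, for Uchl3 with 2 arrays per genotype and for Uchl5 with 1 wild type and 2 mutant arrays, and their intervals reach past a log2 difference of 1 in size.

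On both genotype arrays the Uchl1 probes were lower in untreated mutant than in untreated wild type cells. The set was chosen by this difference. Uchl3 and Uchl5 were lower on both arrays as well, and how many of all probes were so was not counted. The dimmer Uchl1 probe read -1.51 and -1.67 (mean -1.59, SE 0.19), with its mutant channel not well above background on either array. With a background floor in place of that channel, this probe was 1.96-fold lower there in this processing. The floor is the dimmest signal of an array that counts as well above background, or the probe's own signal where that is higher. It is not a detection limit, so such a fold is approximate and not a lower bound. The brighter Uchl1 probe, measured in both channels, read -0.39 and -1.06 (mean -0.73, SE 0.21, 1.65-fold lower). The probes of Uchl1 thus agreed in sign and not in size, and with the normexp background correction they came closer, at -0.36 for the brighter and -0.47 for the dimmer.

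Uchl3 read -0.55 and -0.77 between the untreated genotypes (mean -0.66, SE 0.20, 95% interval -1.14 to -0.17, limma adjusted p = 0.0647). Uchl5 read -0.41 and -0.73 (mean -0.57, SE 0.19, 95% interval -1.03 to -0.11, limma adjusted p = 0.0856). Neither passed the adjusted threshold, which 19.6% of all probes did (8061 of 41099), and both passed at an unadjusted p under 0.05, as did 35.9% of probes. Without genotype replicate 3, 1 array was left for the comparison, on which Uchl3 read -0.77 and Uchl5 -0.73. In this comparison 14.2% of all probes had a lower ratio than Uchl3, 16.8% a lower one than Uchl5, 12.3% than the brighter and 2.07% than the dimmer Uchl1 probe. In bulk RNA, fewer cells of a type that expresses a gene and less of its RNA per cell cannot be told apart.

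**Figure D2:**
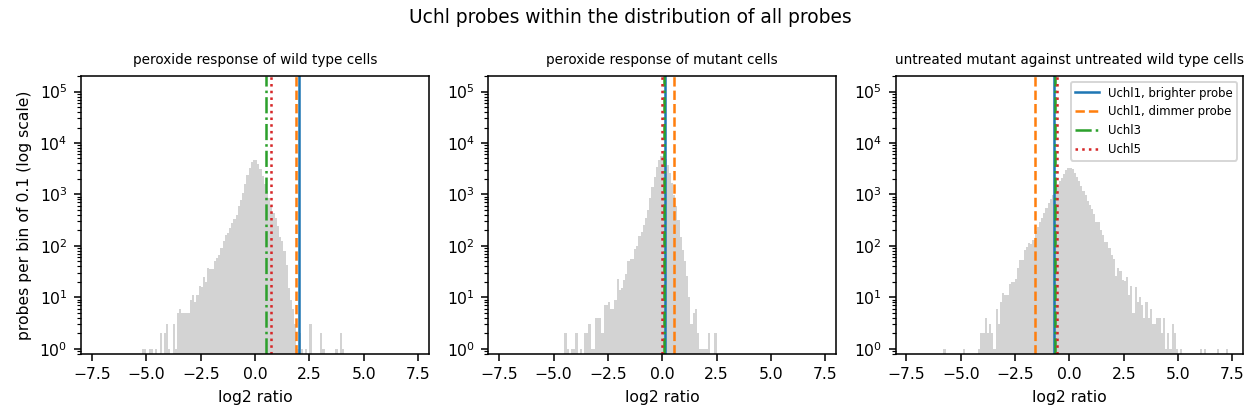
Number of probes (log scale) against the mean log2 ratio in bins of 0.1, for the peroxide response of wild type cells, that of mutant cells and untreated mutant over wild type cells, with the 4 Uchl probes as lines. In mutant cells the line of the brighter Uchl1 probe stands near the middle and that of the dimmer on the upper side, where 3.97% of probes had a higher ratio. Both Uchl1 lines stand at the upper end in wild type cells and on the lower side between the untreated genotypes.

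Levels per channel show the same probes without taking ratios on an array. They are log2 intensities after normalization across all 12 channels, comparable between samples of 1 probe and best within 1 dye, and outlier spots are kept in them. The brighter Uchl1 probe read 7.14, 7.63, 6.92 and 6.76 in the 4 untreated wild type channels (Cy3). It read 6.68 and 6.71 in untreated mutant cells in Cy3 and 6.54 and 5.71 in Cy5. In treated cells, all Cy5, it read 9.17 and 8.92 in wild type and 6.79 and 6.83 in mutant cells. Both treated wild type channels were thus above every other channel. The other levels ran from 5.71 to 7.63. The lowest untreated wild type channel (6.76) was above both untreated mutant channels in Cy3 and below both treated mutant channels in Cy5.

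The dimmer Uchl1 probe gave the same condition at the top. It read 8.38 and 7.05 in treated wild type cells, 5.24 and 5.53 in treated mutant cells, and 6.21, 5.43, 6.02 and 6.005 in untreated wild type cells. In untreated mutant cells it read 4.55 and 5.11 in Cy3 and 4.51 and 4.34 in Cy5, and 5 of the 6 mutant channels were not well above background. Under the direction used here, the wild type and mutant channels of this probe did not overlap within a dye. In Cy5 all wild type channels are of treated cells, so untreated mutant channels have no untreated wild type ones beside them. How many of all probes separate in this way was not counted.

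Uchl3 and Uchl5 had the wild type channels above the mutant ones in each dye as well. The same limits hold: the share of all probes that do so was not counted, and in Cy5 all wild type channels are of treated cells. Uchl3 read 8.22, 7.98, 8.12 and 8.43 in untreated wild type cells against 7.51 and 7.43 (Cy3) and 7.60 and 7.67 (Cy5) in untreated mutant cells. In treated cells Uchl3 read 8.90 and 8.29 in wild type and 7.93 and 7.22 in mutant cells. Uchl5 read 9.37, 8.62, 9.43 and 9.23 in untreated wild type cells, and 8.47 and 8.15 (Cy3) and 9.06 and 8.52 (Cy5) in untreated mutant cells. In treated cells Uchl5 read 10.14 and 9.19 in wild type and 8.65 and 7.96 in mutant cells. Treated and untreated mutant levels overlapped for both genes.

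**Figure D3:**
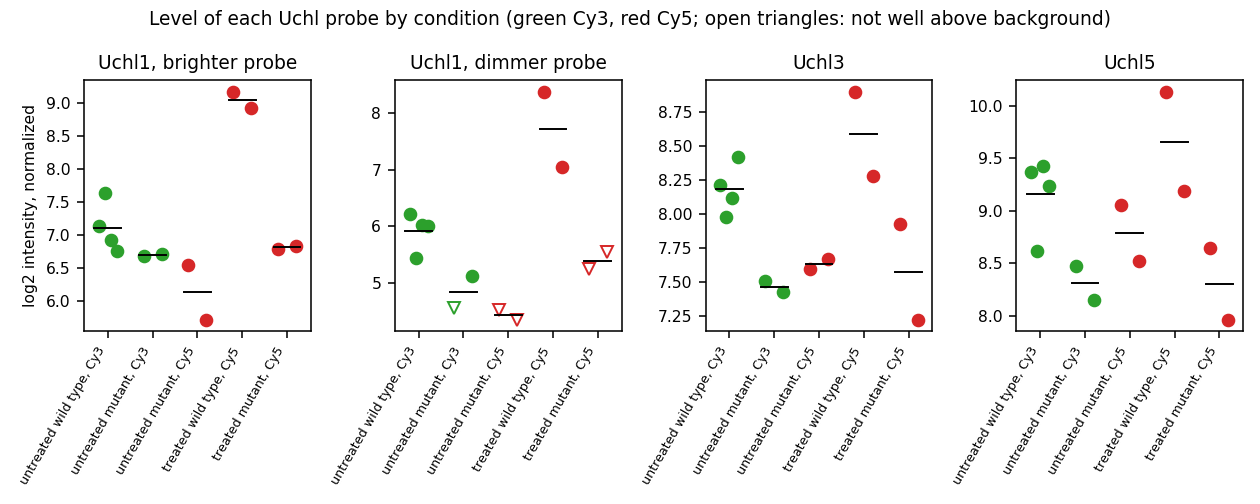
Normalized log2 intensity (vertical axis, its own scale per probe) of each Uchl probe by condition and dye. Points are channels, green in Cy3 and red in Cy5, open triangles are signals not well above background, and lines are means. Treated wild type cells, by which the set was chosen, are highest for both Uchl1 probes. Under the direction used here, the mutant channels lie below the wild type ones within a dye for each probe shown. How many of all probes do so was not counted. In Cy5 all wild type channels are of treated cells, while mutant channels are of treated and untreated cells.

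The treatment arrays alone allow the genotypes to be set against each other within a dye, apart from the genotype arrays whose direction the sources leave unsettled. Within Cy3, untreated mutant minus untreated wild type cells gave -0.69 for the brighter and -0.99 for the dimmer Uchl1 probe, the latter well above background on 1 of the 2 mutant arrays, -0.63 for Uchl3 and -0.69 for Uchl5. Wild type replicate 2 holds an outlier spot of the brighter Uchl1 probe and of Uchl5. With outlier spots left out, a choice made after seeing the data, these became -0.44 for the brighter Uchl1 probe and -1.07 for Uchl5, each with 1 wild type array. Of all probes 14.7% were lower than the value of Uchl3. All 4 thus had the sign that the genotype arrays have under the direction used here, as did 76.5% of the 17067 probes with which that direction was judged. Since the direction rests on this same comparison, the match is no separate support for it. Within Cy5, treated mutant minus treated wild type cells gave -2.23 for the brighter Uchl1 probe, -1.02 for Uchl3 and -1.36 for Uchl5 (-2.36 and -1.83 for the brighter Uchl1 probe and Uchl5 without outlier spots). The dimmer Uchl1 probe, not well above background in treated mutant cells, was 4.80-fold lower there against the background floor, an approximate value. The Uchl1 values rest on the treated wild type level by which the set was chosen. Of all probes 6.08% lay below the value of Uchl3. Untreated mutant cells were read in both dyes, and their Cy5 minus Cy3 level was -0.57 for the brighter and -0.40 for the dimmer Uchl1 probe, 0.17 for Uchl3 and 0.48 for Uchl5. All these differences run across arrays with at most 2 channels a side and were not tested.

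The probes of Uchl1 differed in how the genotype arrays sat beside the others. For the dimmer probe the Cy3 channel of the genotype arrays was 0.20 above that of the wild type treatment arrays and 1.18 above that of the mutant ones, so it lay nearer the untreated wild type cells. For the brighter probe it differed from the wild type ones by -0.54 (-0.29 without the outlier spot) and was 0.15 above the mutant ones, nearer the untreated mutant cells. For Uchl3 it was 0.17 above the wild type and 0.81 above the mutant arrays, and for Uchl5 0.34 (-0.042 without the outlier spot) and 1.02, nearer the wild type cells in both. The brighter Uchl1 probe stood alone among the 4 here.

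The other family members were read by 4 more probes. Uchl4, whose near-identity to Uchl3 means the probes could share RNA, had log2 ratios of 0.75 and 0.52 on its probes in treated wild type cells (limma adjusted p = 0.106 and 0.190) and of -0.22 and -0.48 between untreated genotypes (limma adjusted p = 0.448 and 0.117). Bap1 had probes that disagreed in treated wild type cells, at -0.58 and 0.43 (limma adjusted p = 0.214 and 0.365). Between untreated genotypes the same Bap1 probes read -1.05 (arrays -1.41 and -0.69, limma adjusted p = 0.0207) and -0.43 (limma adjusted p = 0.117), so 1 of the 4 further probes was called, and lower, where 19.6% of all probes were called. Limma called 0 of these 4 probes in either peroxide response, beside 0.258% of all probes in wild type and 0% in mutant cells.

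Genes of ubiquitin and ubiquitin-like proteins, with the enzymes that load ubiquitin and Nedd8, gave few calls. In wild type cells limma called 0 of 13 measured genes after peroxide (3 at an unadjusted p under 0.05, beside 20% of all probes, median log2 ratio -0.03 against 0.00 over all genes). In mutant cells it called 0 of 17 (3 unadjusted, beside 12% of all probes, median -0.05 against 0.01). Ubb, a polyubiquitin gene, read -0.15 in wild type cells (limma adjusted p = 0.672). Between untreated genotypes 1 of 18 rose and 0 fell, the median being -0.09 against 0.03 over all genes. The 1 gene was Isg15, an interferon-induced ubiquitin-like protein, higher in mutant cells by 2.33 (arrays 1.26 and 3.41, limma adjusted p = 0.0135). Over all genes 10.9% were higher and 8.48% lower in that comparison.

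The partners that Uchl5 works with were mostly without a call. The list held the proteasome cap, the INO80 complex and the TGF-beta signalling genes Smad7 and Tgfbr1. Limma called 0 of 17 measured after peroxide in wild type cells (3 at an unadjusted p under 0.05, beside 20% of all probes, median 0.03). In mutant cells it called 0 of 18 (3 unadjusted, beside 12% of all probes, median -0.05). Adrm1, which binds Uchl5 at the proteasome, read -0.22 between untreated genotypes (limma adjusted p = 0.387), and Nfrkb, its partner in INO80, read -0.33 (limma adjusted p = 0.306). Of 18 partner genes 1 was lower in untreated mutant cells and 0 higher (median -0.22), where 8.48% of all genes were lower and 10.9% higher. The lower one was Usp14, the other deubiquitinase that the proteasome cap binds reversibly, at -1.01 (arrays -0.91 and -1.11, limma adjusted p = 0.0216).

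Among 51 other deubiquitinases limma called 0 after peroxide in wild type cells and 0 in mutant cells (8 and 6 at an unadjusted p under 0.05, beside 20% and 12% of all probes, medians -0.05 and -0.01). Between untreated genotypes 9 were lower and 4 higher in mutant cells (median -0.09), 17.6% and 7.84% against 8.48% and 10.9% of all genes. The lowest were Usp9x, which deubiquitinates many substrates (-1.71, limma adjusted p = 0.00663), Usp46 (-1.66), Usp12, which shares the activating partners of Usp46, and Otud1. Against the background floor Usp12 was 2.00-fold and Otud1 2.58-fold lower, the mutant channel of both being not well above background on either array. The 4 higher ones were Tnfaip3, the ubiquitin-editing brake on NF-kB signalling (1.66, limma adjusted p = 0.00387), Stambp, which acts at endosomes (1.21), the mitochondrial Usp30 (0.63) and Usp21 (0.62). The family members Uchl3 and Uchl5, at -0.66 and -0.57, were smaller in size than Usp9x and Usp46.

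Targets of the oxidant-responsive factor NRF2 were counted beside the family. In wild type cells limma called 0 of 20 after peroxide (11 at an unadjusted p under 0.05, all of them higher, where 20% of all probes passed in either direction, median 0.49 against 0.00 over all genes) and in mutant cells 0 of 23 (8 unadjusted, beside 12% of all probes, median 0.19). Between untreated genotypes 8 of 24 rose and 4 fell in mutant cells (median 0.48), 33.3% and 16.7% against 10.9% and 8.48% of all genes. The glutathione transferases Gstm1 (2.19) and Gsta4 (1.47) were among the higher ones. Both subunits of the enzyme that starts glutathione synthesis, Gclm (-1.37) and Gclc (-0.60), were among the 4 lower ones.

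Because Uchl1 itself marks neurons and neuroendocrine cells, their other markers were counted. Of 26 such genes measured, 9 to 19 were well above background in Cy5 per array and 21 to 26 in Cy3, and 5 of them, Map2, Elavl2, Chgb, Scg2 and Scg5, were so in no Cy5 channel. Their mean log2 level ranged over 6.27 to 6.78 in untreated wild type, 6.27 to 6.70 in treated wild type, 6.17 to 6.33 in untreated mutant and 6.21 to 6.23 in treated mutant channels. For each genotype limma called 0 of the 25 with a value after peroxide, with medians of -0.06 and -0.04, beside Uchl1 ratios of 1.90 and 2.02 in wild type cells. At an unadjusted p under 0.05, 6 passed in wild type and 4 in mutant cells, where 20% and 12% of all probes did. Between untreated genotypes 2 rose (Ina 1.58, with the mutant channel well above background on 1 of 2 arrays, and Tubb3 0.77) and 2 fell (Elavl3 -1.53, and Prph -1.89 on the 1 array that measured it), with a median of -0.10. That was 7.69% each way, near the 10.9% higher and 8.48% lower of all genes.

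Fibroblast markers were counted beside the Uchl values. Of 16 measured, 8 were higher and 0 lower in untreated mutant cells (median 0.69), 50% higher against 10.9% of all genes. Among the 8, the largest that changed alike on both arrays were Dcn (2.71), Col6a1 (2.38), Pdgfrb (1.23) and Lum (1.14). Their mean log2 level was 10.06 to 10.65 in untreated wild type, 9.75 to 9.90 in treated wild type, 11.04 to 11.39 in untreated mutant and 10.88 to 11.03 in treated mutant channels. After peroxide in wild type cells 1 of 13 was lower, the collagen gene Col5a1 (-1.36, limma adjusted p = 0.0404), where 0.124% of all genes were. The median was -1.04. At an unadjusted p under 0.05, 10 of the 13 passed, 8 of them lower and 2 higher, beside 20% of all probes in either direction. In mutant cells limma called 0 of 15 (1 at an unadjusted p under 0.05, beside 12% of all probes, median -0.15). Of 10 epithelial markers 3 were lower in untreated mutant cells, where 8.48% of all genes were. They were Krt18 (-1.45), Krt19 (1.10-fold against the background floor, not well above background in mutant cells) and Cldn4 (-1.31, on 1 array). Of 15 muscle markers 2 were higher (Tnnt1 1.15, and Myf6 0.64 with the mutant channel well above background on 1 of 2 arrays) and 1 lower (Chrna1, 1.501-fold against the background floor, not well above background in mutant cells). That was 13.3% and 6.67% of them, against 10.9% and 8.48% of all genes. After peroxide in wild type cells limma called 0 of the 15 muscle markers (7 at an unadjusted p under 0.05, 6 of them lower, beside 20% of all probes in either direction, median -0.58). Between untreated genotypes limma called 0 of 12 macrophage, 10 glial and 7 endothelial markers (1, 2 and 1 at an unadjusted p under 0.05, beside 35.9% of all probes). The part of such differences in cell makeup in the Uchl values was not tested.

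**Figure D4:**
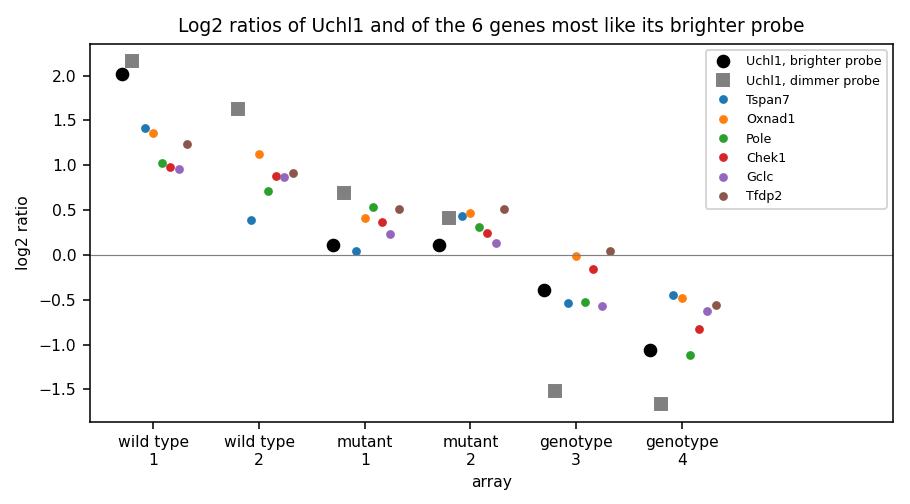
Log2 ratio (vertical axis) on each of the 6 arrays, numbered by comparison and replicate, of both Uchl1 probes and of the 6 genes whose ratios differed least from the brighter Uchl1 probe. Each point is 1 probe on 1 array, and the brighter probe has no point on wild type replicate 2, where its spot was left out. On wild type replicate 1 every one of the 6 genes lies below both Uchl1 probes.

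The genes with the pattern most like Uchl1 were found as those with the smallest root mean square difference of log2 ratios from its brighter probe, among 8057 probes with a mean log2 intensity of at least 6 and a value on all arrays. Over the 5 arrays on which that probe was kept, they were Tspan7 (0.42), Oxnad1 (0.48), Pole (0.50), Chek1 (0.50), Gclc (0.52) and Tfdp2 (0.53). These differences are large beside the ratios themselves. On wild type replicate 1 the 6 genes read from 0.96 (Gclc) to 1.42 (Tspan7), all below the 2.02 of Uchl1. With the outlier spot kept, Zfand2a took the place of Tspan7 and the other 5 stayed. Against the dimmer probe, over 6 arrays, the nearest were Zfand2a (0.59), Wwc1 (0.61), Mllt11 (0.64), Cck (0.72), Lgr6 (0.75) and Smim3 (0.76), none of them among the 6 of the brighter probe.

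The Uchl1 ratio of wild type cells kept its sign and stayed at 1.51 or more on both probes under every processing alternative run. It ran from 1.66 to 2.51 for the brighter and from 1.51 to 2.28 for the dimmer probe. The set was chosen by this ratio, so its range is a description only. Leaving out dim probes or fitting each comparison on its own arrays could not move the value of the brighter probe. The dimmer probe was less steady elsewhere: in mutant cells it ran from 0.24 with the normexp correction to 1.31 with the scanner software's own log ratio, and between untreated genotypes it came to -0.47 with normexp. Uchl5 between untreated genotypes went from -0.57 to -0.15, and Uchl3 from -0.66 to -0.37, where arrays were only centred on their median. That step also moved the wild type responses of Uchl3 from 0.50 to 1.05 and of Uchl5 from 0.73 to 1.32.

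**Figure D5:**
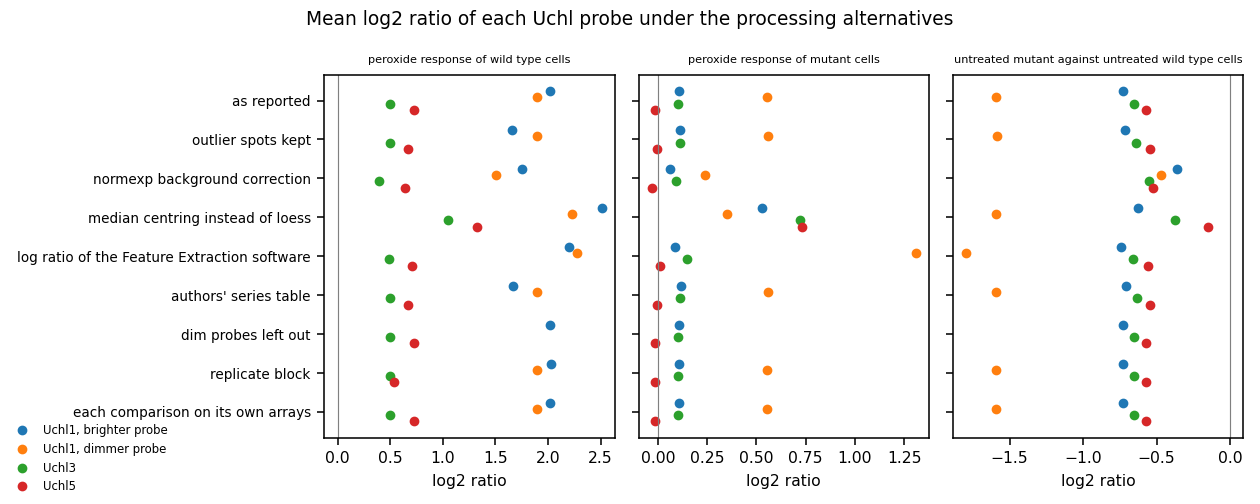
Mean log2 ratio (horizontal axis) of each Uchl probe under the values as reported and 8 processing alternatives (vertical axis), for the peroxide response of wild type cells, that of mutant cells and untreated mutant over wild type cells. The dimmer Uchl1 probe has no point where dim probes were left out. Uchl1, by whose wild type ratio the set was chosen, stays at 1.51 or above in wild type cells under all of them. The probe values shift most under normexp, median centring and the scanner software's log ratio.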

How the data were processed

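RNA of the 6 two-colour Agilent arrays was labelled with Cy3 and Cy5. The authors extracted spot intensities with Feature Extraction (A.7.5.1 per the file headers), and the deposited files also give its log10 ratio. A deposited table of log2 ratios, processed by the authors with limma, was an alternative. Here, in R 4.3.3 with limma 3.58.1, mean intensities less the local background were used, control and outlier spots got weight 0 in loess within arrays and were left out, and spots of 1 probe were averaged. lmFit and eBayes used all 6 arrays, with 1 coefficient per comparison, Benjamini-Hochberg adjustment over all probes and calls at an adjusted p under 0.05. Levels per channel followed loess and Aquantile. The number of arrays, 2 per comparison with 3 residual degrees of freedom, limits the precision. Of the probes, 20716 were named through RefSeq accessions and 5279 through older symbols. The members, gene lists and motifs were chosen with earlier results of these data known. Besides the family, the text names at most 4 called genes per list and direction, changed alike on both arrays, a few list genes named for their role, and the 6 genes most like Uchl1. The fit was tested on simulated data. Scan dates were not used.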

Additional observations from a re-analysis of the deposited data

How the results depend on the processing

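Reading Cy5 of the genotype arrays as wild type cells turns the log2 ratios there to 0.73 and 1.59 (Uchl1, brighter and dimmer probe), 0.66 (Uchl3) and 0.57 (Uchl5). The brighter Uchl1 probe read 2.51 in wild type cells with median centring, and in mutant cells 0.53 with median centring, 0.060 with normexp, 0.088 with the software's log ratio, 0.11 with outlier spots kept and 0.11 in the deposited table. Uchl5 in mutant cells turned to 0.73 with median centring and 0.0099 with the software's log ratio, and without 1 array it ran from -0.21 to 0.18 and Uchl3 from -0.22 to 0.42. With median centring Uchl3 went from 0.10 to 0.72 in mutant and from 0.50 to 1.05 in wild type cells, and Uchl5 from 0.73 to 1.32 in wild type cells. With outlier spots left out of the channel levels, chosen after seeing the data, the Cy3 level of Uchl5 on the genotype arrays minus the wild type treatment arrays turned from 0.34 to -0.042. Leaving out 1 array at a time could not move the 2.02 of the brighter Uchl1 probe in wild type cells. That value rests on wild type replicate 1 alone, and without this array there was none. The brighter probe ran from 0.11 to 0.11 in mutant cells and from -1.06 to -0.39 between genotypes. Its difference of responses ran from -1.91 to -1.91, with that same replicate as the only wild type array. The number of probes called in wild type cells, 104, became 982 with outlier spots kept, 2240 with normexp, 13 with median centring, 578 with the software's log ratio, 997 in the deposited table, 866 without dim probes, 10115 on its own arrays, 0 at the study's thresholds and 0 to 9200 without 1 array. In mutant cells 0 became 1875 with median centring, 4380 on its own arrays and 0 to 4070 without 1 array. Between genotypes 8061 became 4373 with median centring, 3352 with the software's log ratio, 2057 on its own arrays, 725 at the study's thresholds and 3704 to 16160 without 1 array. For the difference, 0 became 513 on its own arrays and 0 to 513 without 1 array. With the replicate number as a block, 0 probes were called in wild type cells and 3452 between genotypes, and the brighter Uchl1 probe read 2.02. The deviations of same-numbered arrays correlated at -0.05. A level shared by both channels of an array cancels in its ratio, so this cannot show whether the numbers pair the samples. Uchl3 passed in wild type cells when that comparison was fitted on its own arrays, where 10115 probes were called. Its limma adjusted p was 0.0273 there and up to 0.365 over the alternatives. Uchl5, with 1 wild type array, passed there and without genotype replicate 3 or 4, where 9200 probes were called. It passed under no other setting run. Between genotypes Uchl3 passed without dim probes (limma adjusted p = 0.0443), where 8471 probes were called. The cause of these shifts was not tested. A block by scan date was not run, since each array is its own slide and no scan date was used. Signals near background limit the dimmer Uchl1 probe in mutant cells.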
